A study of Rattus norvegicus with 8 samples.

Results

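The 9 genes described here belong to the signalling system of glial cell line-derived neurotrophic factor (GDNF) and to the neural crest in fetal rat islets. They are the ligand genes Gdnf and Nrtn, the co-receptor genes Gfra1, Gfra2, Gfra3 and Gfra4, the receptor gene Ret, and the neural crest and glial genes Ngfr and Sox10. They were listed by name and chosen by the measured log2 difference of 1 of them, since Gfra1 was higher in growth-restricted litters. All 9 had a probe set with 1 annotated gene, of 14506 genes measured on microarrays. The differences of all 9 genes between the groups are given as a description, with a standard error and no p-value.

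All animals were Sprague-Dawley rats. At embryonic day 18 a dam had either surgery that causes intrauterine growth restriction (IUGR) or a sham operation, and RNA came from pancreatic islets of the fetuses at day 19. Each array held the pooled islets of 1 litter, for 4 sham and 4 IUGR litters, so the spread between fetuses was not measured. The labels name no genotype, transgene, drug or cell sort for either group.

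GDNF family ligands signal through a pair of receptors. A GFRA co-receptor, anchored to the cell surface, binds the ligand and brings it to the receptor tyrosine kinase RET. GDNF prefers GFRA1, neurturin prefers GFRA2, artemin prefers GFRA3 and persephin prefers GFRA4. In the embryo this system guides neural crest cells that become enteric neurons and glia, and it drives branching of the ureteric bud, an epithelium. In the pancreas, neural crest cells settle around the islets as glia and neurons, and SOX10 and the neurotrophin receptor NGFR mark that lineage.

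The values are log2 expression values, so a difference of 1 is a doubling of signal. They do not rank different genes, because each probe set has its own sensitivity. The arrays differed in spread, with an interquartile range over genes of 3.06 to 3.23 in sham replicates 2 to 4 and of 3.53 to 3.63 in the other 5 litters. The median gene value was 8.48 to 8.55 in sham replicates 2 to 4 and 8.76 to 8.85 in the other 5 litters. Islet genes were present, at percentiles of gene values from 45.6 for Kcnj11, a potassium channel gene, to 92.5 for Iapp, the amylin gene of beta cells. The mean of 13 endocrine genes was 9.60 to 9.82 in sham replicates 1 to 3, 11.48 in sham replicate 4 and 10.29 to 10.87 in IUGR litters. Sham replicate 3 also stood apart. It carried transcripts of the adrenal cortex at high level: Cyp11a1, which encodes the side-chain cleavage enzyme that starts steroid synthesis, was at 11.26 there and between 6.21 and 6.71 in the other 7 litters. The differences of Gfra1, Ret, Sox10, Ngfr, Th, Dbh and S100b are given with and without that litter. Most results of the autonomic neuron list include it.

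Gfra1 encodes the GDNF co-receptor. The 250 bases before its start and the same stretch before that of Ret are shown because these were the genes of the 9 with the highest IUGR minus sham difference. They are RefSeq sequences of the rat assembly GRCr8, printed on the gene's strand, 5′ to 3′, with the GC box GGGCGG, on either strand, in capitals. The Gfra1 stretch lies at chr1:267555812-267556061 on the minus strand and the Ret stretch at chr4:153040557-153040806 on the minus strand.
Gfra1: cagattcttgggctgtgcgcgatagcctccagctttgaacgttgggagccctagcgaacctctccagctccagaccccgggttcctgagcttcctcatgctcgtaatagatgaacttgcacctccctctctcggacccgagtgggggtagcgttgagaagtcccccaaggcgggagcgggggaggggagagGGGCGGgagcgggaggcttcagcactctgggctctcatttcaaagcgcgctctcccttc
Ret: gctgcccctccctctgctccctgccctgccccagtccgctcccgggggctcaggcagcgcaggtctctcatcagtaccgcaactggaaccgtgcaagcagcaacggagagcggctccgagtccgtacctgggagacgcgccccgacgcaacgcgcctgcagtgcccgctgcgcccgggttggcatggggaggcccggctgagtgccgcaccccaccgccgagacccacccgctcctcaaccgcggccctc
The Gfra1 stretch held 1 GC box and the Ret stretch 0, and GC content was 62.0% and 72.8%. Of 27457 promoters of the same length, 32.4% held at least 1 GC box. The letters ACAAAG or ACAATG, a core of SOX factor sites, were found on neither strand of either stretch and in 24.8% of all promoters. The letters CAAAGTCCA, a core of HNF4 sites, were in neither stretch and in 0.331% of all promoters. A match describes letters in this window. The table held 6 of the 9 genes, and Gfra2, Ngfr and Sox10 had no entry.

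Gfra1 was higher in every IUGR litter than in every sham litter. It was at 8.74, 9.19, 9.13 and 8.93 in sham replicates 1 to 4 and at 10.01, 9.95, 9.75 and 9.81 in IUGR replicates 1 to 4. The lowest IUGR litter lay 0.55 above the highest sham litter, and litters of a group lay close together. Sham litters averaged 8.999 ± 0.21 and IUGR litters 9.88 ± 0.12 (SD, n = 4 each), a difference of 0.88 ± 0.12 (SE), or 1.84-fold. The groups also did not overlap after quantile normalization or median centring, where the difference was 0.66 and 0.65. Leaving out 1 litter at a time gave 0.79 to 0.94.

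Ret, the signalling receptor that GFRA1 engages, had a difference of like size but a wider spread. It was at 8.52, 9.13, 9.49 and 9.70 in sham replicates 1 to 4. It was at 10.10, 9.94, 9.57 and 10.69 in IUGR replicates 1 to 4. IUGR replicate 3 lay below sham replicate 4, so the groups overlapped by that pair, and the remaining IUGR litters lay above every sham litter. The means were 9.21 ± 0.52 and 10.08 ± 0.47 (SD, n = 4 each), a difference of 0.86 ± 0.30 (SE). It was 0.63 without sham replicate 1 and 1.03 without IUGR replicate 3.

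**Figure D1:**
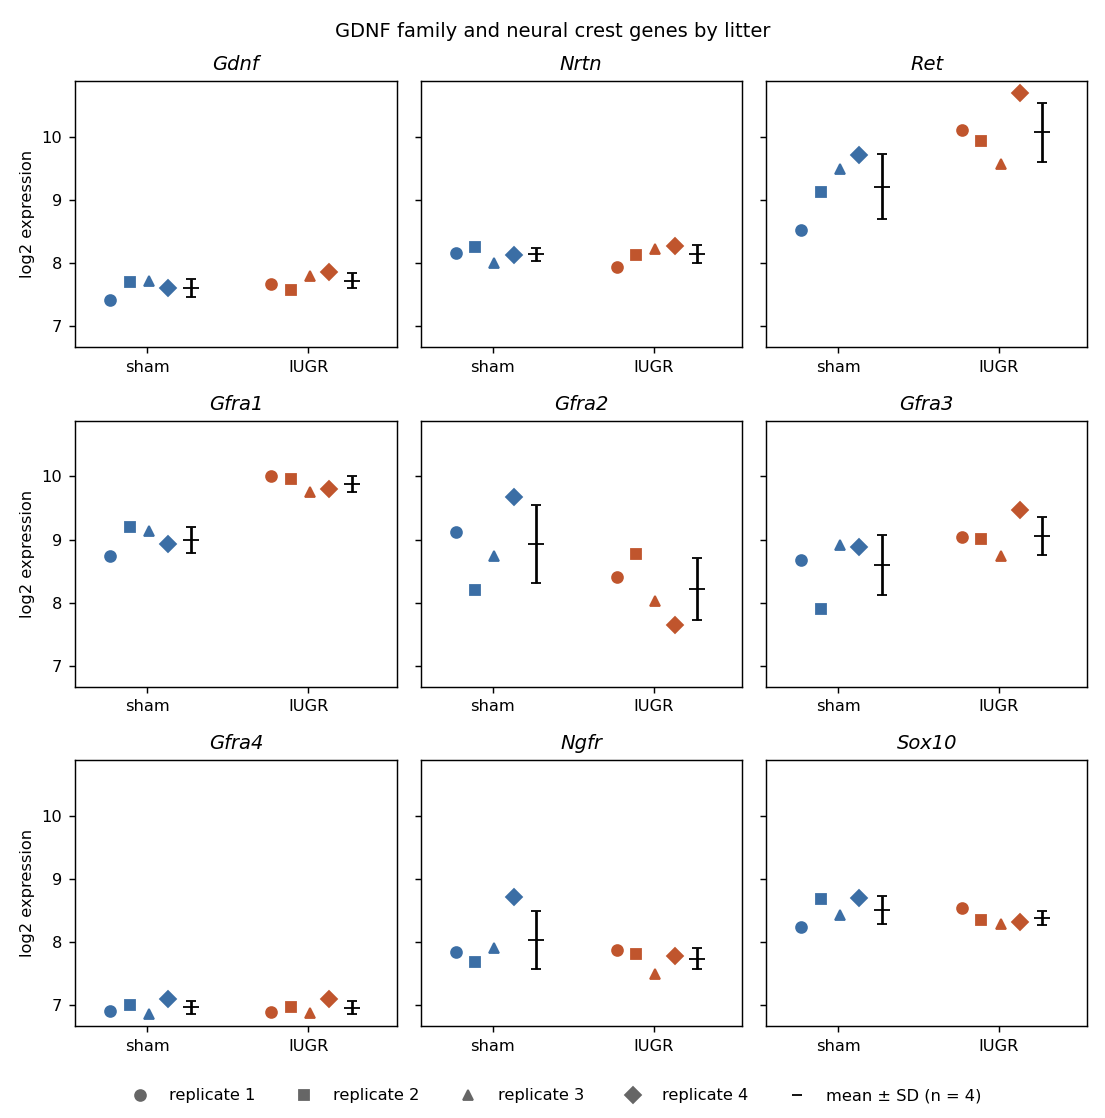
Log2 expression (y axis) of the 9 genes in each litter (points; sham blue, IUGR orange, marker by replicate), with the group mean and SD (bars, n = 4). Gfra1 is the gene without overlap, from 8.74 to 9.19 in sham and 9.75 to 10.01 in IUGR litters; heights are not comparable between genes.

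For the other 3 co-receptors the groups overlapped. Gfra2, the neurturin co-receptor, was at 9.11, 8.19, 8.73 and 9.67 in sham replicates 1 to 4 and at 8.41, 8.78, 8.03 and 7.65 in IUGR replicates 1 to 4. Its spread within sham litters was wide, and the groups overlapped broadly. The difference was -0.71 ± 0.34 (SE), and -0.46 without sham replicate 4, its highest litter. That litter was also the highest of all in the means of endocrine (11.48), mesenchymal (12.19) and endothelial genes (11.68). The part of these signals in the Gfra2 value was not tested.

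Gfra3, the artemin co-receptor, was at 8.68, 7.89, 8.91 and 8.89 in sham replicates 1 to 4 and at 9.03, 9.001, 8.74 and 9.46 in IUGR replicates 1 to 4. Sham replicate 2 was the low litter, and IUGR replicate 3 lay within the sham range. The difference was 0.47 ± 0.25 (SE) and it was 0.23 without sham replicate 2. Gfra4, the persephin co-receptor, lay between 6.87 and 7.10 in sham and between 6.88 and 7.10 in IUGR litters. Its range was thus nearly the same in both groups, with a difference of -0.01 ± 0.09 (SE) and a 95% interval from -0.21 to 0.20. Its probe set lay at percentile 27.1 of gene values on average.

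Both ligand genes of the list stayed near a single level. Gdnf lay between 7.42 and 7.72 in sham and between 7.58 and 7.86 in IUGR litters, with a difference of 0.11 ± 0.10 (SE) and a 95% interval from -0.12 to 0.35. Nrtn, the neurturin gene, lay between 8.01 and 8.26 in sham and between 7.94 and 8.27 in IUGR litters. Its difference was 0.00 ± 0.10 (SE), with an interval from -0.23 to 0.23. The sign of Gdnf depended on scaling, being -0.01 after quantile normalization and -0.12 after median centring, and Nrtn was -0.20 and -0.23 under the same settings.

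Sox10 and Ngfr had differences below 0. Sox10, the transcription factor of crest-derived glia, was at 8.23, 8.69, 8.43 and 8.70 in sham replicates 1 to 4 and at 8.54, 8.35, 8.29 and 8.33 in IUGR replicates 1 to 4. The IUGR litters lay within the sham range, and the difference was -0.14 ± 0.12 (SE). Ngfr, the low-affinity neurotrophin receptor, was at 7.84, 7.68, 7.91 and 8.72 in sham replicates 1 to 4 and at 7.88, 7.81, 7.498 and 7.78 in IUGR replicates 1 to 4. Sham replicate 4 set most of its difference of -0.29 ± 0.22 (SE), which was -0.07 without that litter. After quantile normalization Sox10 differed by -0.38 and Ngfr by -0.46.

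Of the 9 genes, 5 were higher and 4 lower in IUGR litters, with a median difference of 0.00, where all genes had a median of 0.04. After median centring 3 were higher, and the median of all genes was -0.19. In limma across 14506 genes with Benjamini-Hochberg adjustment, 1 of the 9 passed an adjusted p of 0.05, namely Gfra1, where 0.248% of all genes passed, 0.234% higher and 0.0138% lower. The groups did not overlap in 1 of the 9, again Gfra1, where 15.5% of all genes had no overlap, 10.0% higher and 5.45% lower. Since that contrast chose Gfra1, nothing is read from these counts. The limma call of Gfra1 was also unstable. Among the settings varied, it was lost after quantile normalization, after median centring, with a trended robust prior, with an epithelial or neuronal list mean as covariate, and without sham replicate 2 or 3 or any 1 of the IUGR litters.

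Of 6 other ligand and receptor genes, none had groups without overlap. Of these, 3 were higher and 3 lower, with a median difference of 0.02 and 0 past the adjusted threshold in limma (2 at an unadjusted p under 0.05, where 26.1% of all genes lay under it). Artn, the artemin gene, differed by 0.10 ± 0.09 and Pspn, the persephin gene, by -0.27 ± 0.11 (SE). Gdf15, whose product signals through RET with the co-receptor GFRAL, differed by 0.12 ± 0.15, and Gfral itself by -0.07 ± 0.07 at percentile 3.26 of gene values. Ncam1, an adhesion molecule that can serve GDNF as an alternative receptor, differed by 0.10 ± 0.13. The signs of Artn, Gdf15 and Ncam1 turned after median centring, to -0.13, -0.11 and -0.13. After quantile normalization those of Gdf15 and Ncam1 turned to -0.11 and -0.11, and that of Gfral to 0.11. Sdc3, a syndecan that binds GDNF, differed by -0.41 ± 0.17 (SE), with IUGR replicates 1 and 4 lowest, at 10.70 and 10.42.

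Genes that carry or answer the RET signal were mixed. Of 14 measured adaptors and effectors, 8 were higher and 6 lower, with a median difference of 0.04 and 0 past the adjusted threshold in limma (2 at an unadjusted p under 0.05). Grb7, an adaptor of receptor tyrosine kinases, differed by 0.83 ± 0.25 and Irs1, the insulin receptor substrate, by -0.47 ± 0.16 (SE). Of 6 measured genes known to answer RET in the ureteric bud, 3 were higher, with a median of -0.01 and 0 past the threshold (1 at an unadjusted p under 0.05). The share of all genes under that unadjusted p was 26.1%. Met, the hepatocyte growth factor receptor, was at 8.69, 8.61, 8.98 and 9.07 in sham replicates 1 to 4 and at 9.99, 9.49, 9.63 and 10.58 in IUGR replicates 1 to 4. Met thus had no overlap, as was so for 15.5% of all genes, and its difference was 1.08 ± 0.24 (SE). The transcription factor genes Etv4 and Etv5 differed by 0.08 ± 0.12 and 0.29 ± 0.16, Etv4 turning to -0.15 after median centring. The feedback inhibitor genes Spry1 and Dusp6 differed by -0.11 ± 0.15 and -0.20 ± 0.17, and the chemokine receptor gene Cxcr4 by -0.13 ± 0.15 (SE).

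**Figure D2:**
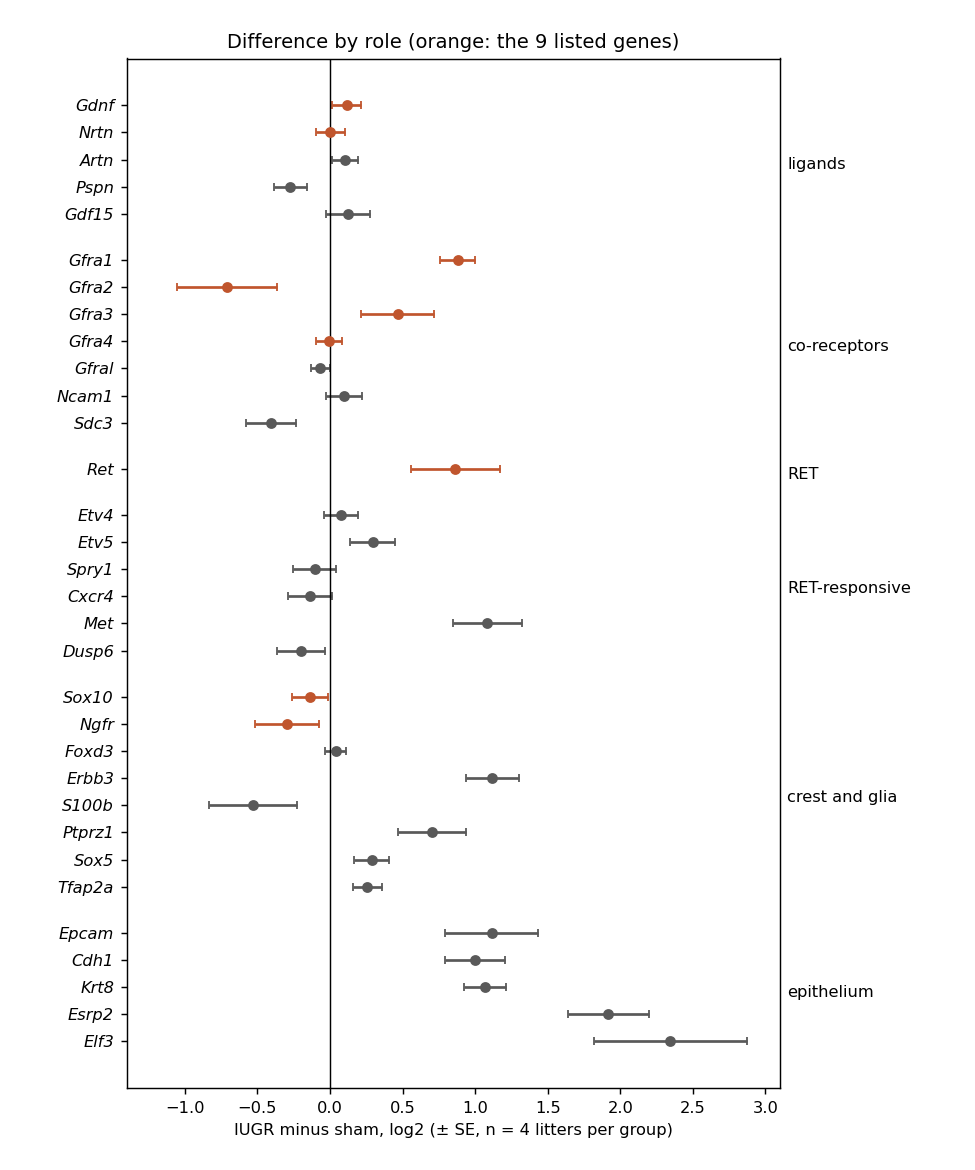
IUGR minus sham difference (x axis, log2; points with SE bars, n = 4 litters per group) of the 9 listed genes (orange) and other named genes (grey), ordered by role on the y axis. Gfra1 is at 0.88 and Ret at 0.86, and the epithelial genes drawn lie between 1.00 and 2.35. The crest and glial genes drawn lie on both sides of 0. Erbb3 (1.12), Ptprz1 (0.70), Sox5 (0.29), Tfap2a (0.26) and Foxd3 (0.04) are above 0. Sox10 (-0.14), Ngfr (-0.29) and S100b (-0.53) are below.

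Neural crest factors and glial genes as lists stayed near 0. Of 12 measured crest factors, 5 were higher, with a median difference of -0.04 and 0 past the adjusted threshold in limma (2 at an unadjusted p under 0.05). Those with the widest differences were Sox5 at 0.29 ± 0.12 and Tfap2a, the AP-2 alpha gene, at 0.26 ± 0.10 (SE). Both had no overlap, as was so for 15.5% of all genes, and after median centring they were 0.06 and 0.03. Tfap2a was dim, at percentile 10.45 of gene values. Of 13 measured glial and Schwann cell genes, 6 were higher, with a median of -0.0027 and 0 past the threshold (3 at an unadjusted p under 0.05). For both lists, the share of all genes under that unadjusted p was 26.1%. Foxd3, a crest factor kept in glial precursors, differed by 0.04 ± 0.07 and by -0.19 after median centring. The glial gene S100b differed by -0.53 ± 0.30, which was -0.20 without sham replicate 3. Cdh19, a cadherin of Schwann cell precursors, was at percentile 2.96. After quantile normalization 8 of the 13 were higher, and after median centring 4.

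Of the 6 genes of the glial list with a difference above 0, Erbb3, Ptprz1 and Mbp had the largest. Erbb3, a neuregulin receptor gene, was at 7.98, 7.97, 7.84 and 8.32 in sham replicates 1 to 4. It was at 9.51, 8.77, 8.96 and 9.34 in IUGR replicates 1 to 4, without overlap, and differed by 1.12 ± 0.18 (SE). Mbp, the myelin basic protein gene, differed by 0.52 ± 0.14 without overlap. These were the 2 genes of the list without overlap, where 15.5% of all genes had no overlap. Ptprz1, a receptor phosphatase, differed by 0.70 ± 0.23 (SE) with overlap. Sox2, a transcription factor of glial precursors, Fabp7, a fatty acid-binding protein gene of glia, and Foxd3 differed by 0.25, 0.13 and 0.04. The other 7 genes of the list had differences below 0. They were S100b (-0.53), Egr2 (-0.26), Gpr37l1 (-0.09), Gfap (-0.03), Scn7a (-0.02), Cdh19 (-0.01) and Lgi4 (-0.003).

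All 18 measured epithelial genes were higher in IUGR litters, 17 of them without overlap, by a median of 1.13, from 0.76 to 2.35. Of these, 2 passed the adjusted threshold, namely Krt8, a keratin of simple epithelia, and Esrp2, an epithelial splicing factor. Both calls were lost after quantile normalization, where no gene passed. Of all genes, 55.1% were higher, 10.0% were higher without overlap and 0.234% were higher past the adjusted threshold. Epcam, an epithelial adhesion molecule, differed by 1.11 ± 0.32, Cdh1, the E-cadherin gene, by 1.00 ± 0.21, and Elf3, an epithelial transcription factor, by 2.35 ± 0.53 (SE). The duct keratin gene Krt19 differed by 1.09 ± 0.33. In these pooled islets, more cells of a type and more RNA per cell cannot be told apart.

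Markers of other pancreatic cells and of neighbouring tissue also differed between litters. All 18 liver genes were higher in IUGR litters, by a median of 1.98, and their list mean ran from 8.99 to 11.73 in sham and from 11.55 to 12.93 in IUGR litters, so the groups overlapped. All 17 acinar genes were higher by a median of 1.09, all 9 duct genes by 0.68 and 12 of 13 endocrine genes by 0.35. All 14 mesenchymal genes were lower, with a median difference of -0.63, as were all 12 endothelial genes (median -0.21), all 12 macrophage genes (-0.55) and 7 of 8 erythroid genes (-0.67). In these lists 0 genes passed the adjusted threshold in limma, with 16, 12, 6, 2, 7, 1, 5 and 4 at an unadjusted p under 0.05, in the order given. Of all genes, 26.1% lay under that unadjusted p. Albumin (Alb), the defining liver transcript, averaged 13.08 in sham and 13.92 in IUGR litters. The part of liver, acinar or mesenchymal cells in the Gfra1 value was not tested.

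Several list means had no overlap between groups. The epithelial list mean was 9.09, 9.93, 9.74 and 9.93 in sham replicates 1 to 4 and 11.24, 10.74, 10.68 and 10.90 in IUGR replicates 1 to 4, without overlap. The duct list mean, at 9.35 to 9.98 in sham and 10.30 to 10.56 in IUGR litters, and the acinar list mean, at 9.13 to 10.67 and 10.78 to 11.71, also lay higher without overlap. The RET-responsive list mean did so by a narrow gap, at 9.04 to 9.28 and 9.32 to 9.43, and the mesenchymal list mean lay lower without overlap, at 11.51 to 12.19 and 10.49 to 11.45. The glial list mean was 7.18 to 7.63 in sham and 7.37 to 7.64 in IUGR litters. The autonomic neuron list mean was 7.74 to 8.28 in sham and 7.43 to 8.44 in IUGR litters. The groups overlapped in the glial and neuronal means. A lack of overlap is thus shared by Gfra1 with several lists, and that contrast chose Gfra1.

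The gap between Gfra1 and each list mean on the same array was then compared between groups. Gfra1 minus the epithelial mean averaged -0.67 in sham and -1.01 in IUGR litters, with overlap. Gfra1 minus the glial mean averaged 1.65 in sham and 2.40 in IUGR litters, without overlap. Against the autonomic neuron mean it averaged 1.08 and 1.97, also without overlap. These shifts were not tested, because the same contrast chose Gfra1.

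The variation within groups, which the choice of Gfra1 did not use, was then examined. After the group means were removed, Gfra1 against the epithelial list mean over 8 litters gave Pearson's r = 0.75 (exact two-sided permutation p = 0.066, 0.132 adjusted over 2 relations) and Spearman's rho = 0.69 (exact p = 0.094, adjusted 0.188). Gfra1 against the glial list mean gave r = 0.11 (exact permutation p = 0.854, adjusted 0.854) and rho = 0.25 (exact p = 0.642, adjusted 0.642). A relation with the autonomic neuron list was added after litter values had been seen, and gave r = 0.59 (exact permutation p = 0.106, adjusted over 3 relations 0.159) and rho = 0.64 (exact p = 0.080, adjusted 0.141). None passed. Whether the 3 relations differ from one another was not tested.

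The relation with epithelium rested on 2 litters. Without sham replicate 1 and IUGR replicate 1, the litters farthest from the median of the epithelial mean, r was -0.14. The same omission gave a glial r of -0.85, and the neuron r was 0.36 without IUGR replicate 1 and sham replicate 3. Sham replicate 1 had the lowest Gfra1 value (8.74), the lowest epithelial mean (9.09) and, among sham litters, the widest interquartile range. Scaling bore on the relation with epithelium, with r = 0.88 after quantile normalization (exact permutation p = 0.043) and r = 0.90 after median centring (exact permutation p = 0.030), neither adjusted. Median centring takes the same array value off Gfra1 and off any list mean. The glial and neuronal r after these scalings are not given here, so these values do not set epithelium apart.

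**Figure D3:**
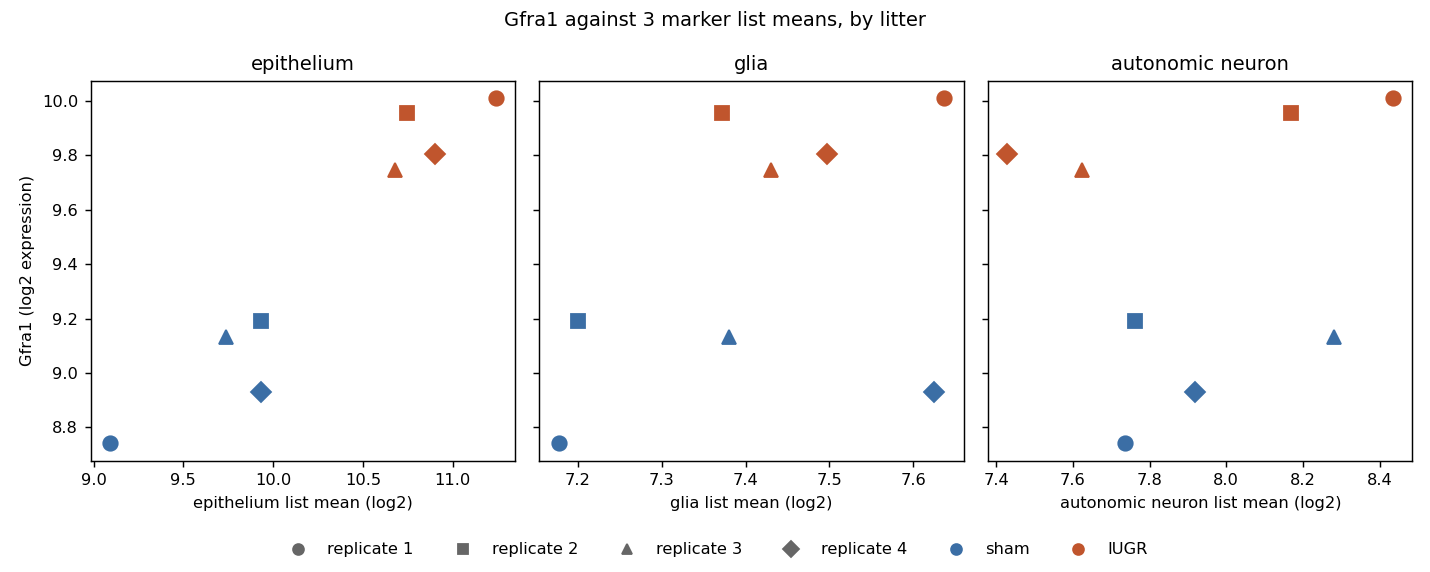
Gfra1 (y axis, log2) against the mean of the epithelial, glial and autonomic neuron lists (x axes, log2) in each of the 8 litters (sham blue, IUGR orange, marker by replicate). The groups separate on the epithelial axis, 9.09 to 9.93 against 10.68 to 11.24, and overlap on the glial and neuronal axes.

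With a list mean as a covariate in the fit, the difference of Gfra1 was 0.42 ± 0.22 for epithelium, 0.87 ± 0.14 for glia and 0.88 ± 0.11 for autonomic neurons (SE). The epithelial mean separates the groups completely, so that fit cannot tell epithelial transcripts from group. Ret turned from 0.86 to -0.35 ± 0.56 with the epithelial mean and was 0.59 ± 0.27 with the glial mean. Sox10 was -0.74 ± 0.17 with the epithelial and -0.22 ± 0.12 with the glial mean, and Ngfr was -0.81 ± 0.50 and -0.54 ± 0.15 (SE). Gfra3 was 0.58 with the epithelial and 0.30 with the glial mean, and Gfra2 was -0.54 and -0.92.

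**Figure D4:**
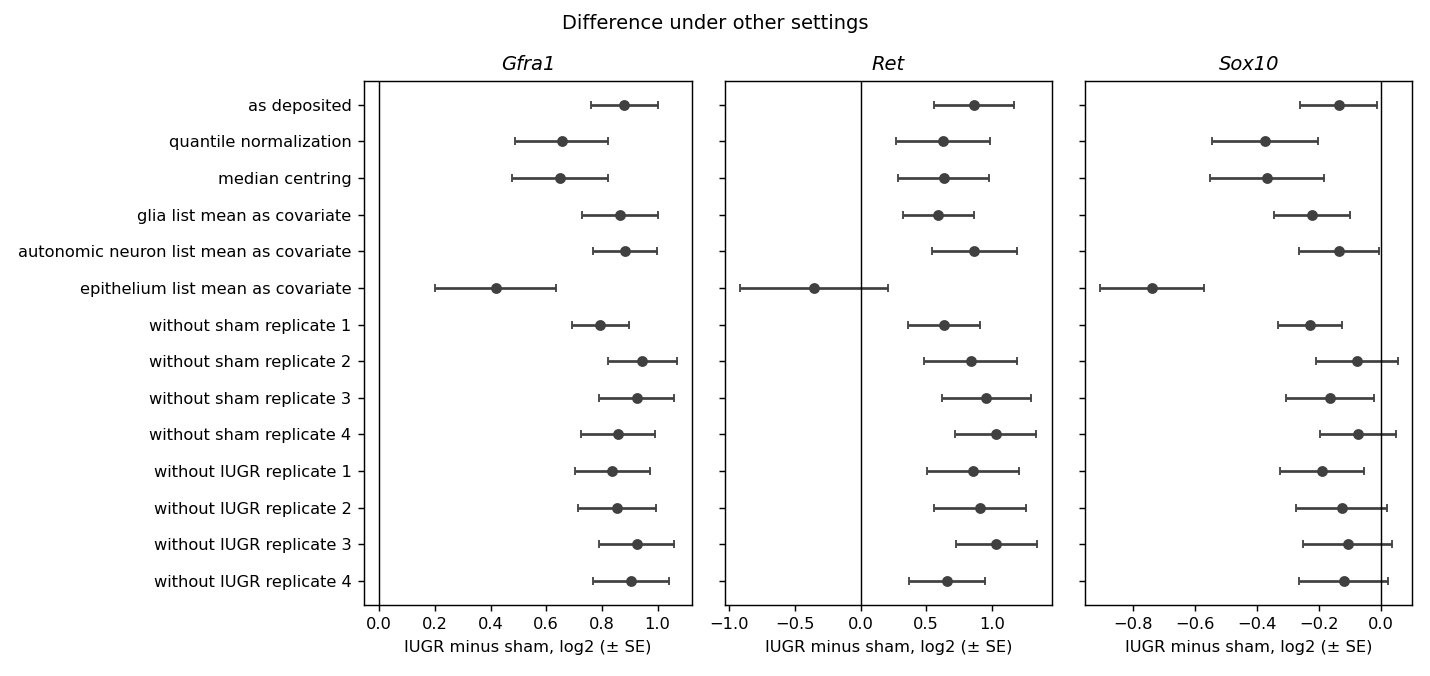
IUGR minus sham difference (x axes, log2, with SE bars) of Gfra1, Ret and Sox10 as deposited, under other scalings, with a list mean as covariate and with each litter left out (y axis). Gfra1 stays above 0 from 0.42 to 0.94, and Ret falls below 0, to -0.35, with the epithelial covariate.

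Over the deviations within groups, Gfra1 was most like Sox10 among the other 8 genes. Its r was 0.65 with Sox10, 0.36 with Ret, 0.34 with Gdnf, -0.05 with Gfra4, -0.08 with Ngfr, -0.23 with Gfra2, -0.32 with Gfra3 and -0.34 with Nrtn, as a description over 8 litters. In the order of all genes, Sox10 ranked 1183 and Ret 3167. All 18 epithelial genes had an r above 0 with Gfra1, with a median of 0.64, as did 12 of 12 neuron genes, with a median of 0.51, and 17 of 17 acinar genes, with a median of 0.39. The count above 0 was 8 of 13 for glial genes, with a median of 0.07, 8 of 14 for mesenchymal genes, 6 of 9 for duct genes, 1 of 13 for endocrine genes and 0 of 18 for liver genes. Over all genes 44.3% were above 0. The genes share arrays, so that these signs are not independent.

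The genes most like Gfra1 by that measure were Defa8 (r = 0.99), Tas2r105 (0.99), Shd (0.97), Cdkn1c (0.97) and Oacyl (0.97). Apart from Cdkn1c, a cell cycle inhibitor gene at percentile 84.1, they were dim, between percentiles 3.68 and 26.3. Cdkn1c was at 11.05, 11.47, 11.48 and 11.17 in sham and 10.72, 10.68, 10.34 and 10.48 in IUGR replicates 1 to 4, so it differed by -0.74, opposite to Gfra1. The 5th percentile of gene values was 5.59, 5.88, 5.81 and 5.81 in sham replicates 1 to 4 and was likewise lowest in replicate 1 of that group. In IUGR replicates 1 to 4 it was 5.60, 5.54, 5.56 and 5.58. It was thus lowest in IUGR replicate 2, whereas Gfra1 was lowest in IUGR replicate 3. The part of the arrays' spread in this likeness was not tested. The genes most like Ret were Syt6, Npbwr1, Zscan10, Hspb2 and Ak8, with r from 0.97 to 0.99 and all between percentiles 26.3 and 37.7.

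Autonomic neuron genes varied between litters of the same group. Of 12 measured, 6 were higher and 6 lower, with a median of 0.03 and 0 past the adjusted threshold in limma. At an unadjusted p under 0.05 there were 0 of them, against 26.1% of all genes. IUGR replicates 1 and 2 were the high litters of their group: Elavl4, a neuronal RNA-binding protein gene, was at 9.25 and 8.51 there and at 7.73 and 7.69 in IUGR replicates 3 and 4. Prph, the peripherin gene of peripheral neurons, and Stmn2, a gene of growing axons, chosen after their values were seen, showed the same order, Prph being at 9.69 and 9.21 against 8.32 and 7.88. Sham replicate 3, the litter with adrenal transcripts, had the highest sham neuron mean, at 8.28. That list includes Th and Dbh, which were at 10.16 and 9.39 there and at most 7.35 and 7.34 in the other sham litters. Without that litter the highest sham neuron mean was 7.92, in sham replicate 4. The part of Th and Dbh in the mean of sham replicate 3 was not tested. Nefl, a neurofilament gene, differed by -0.48 ± 0.34 (SE). Gfra1 itself was 10.01 and 9.95 in IUGR replicates 1 and 2 and 9.75 and 9.81 in IUGR replicates 3 and 4.

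**Figure D5:**
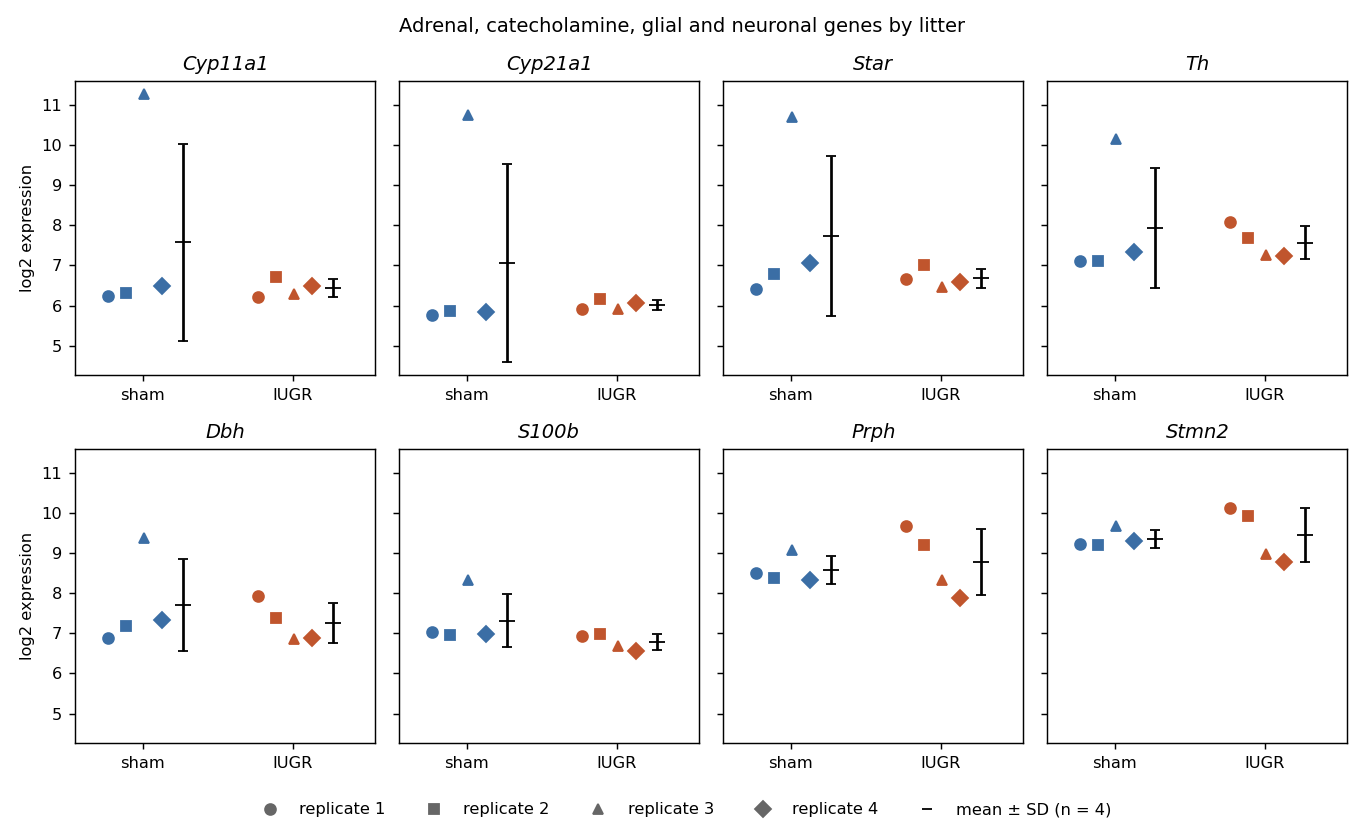
Log2 expression (y axis) of adrenal steroid genes (Cyp11a1, Cyp21a1, Star), catecholamine genes (Th, Dbh), the glial gene S100b and the neuronal genes Prph and Stmn2 in each litter (points; sham blue, IUGR orange, marker by replicate), with the group mean and SD (bars, n = 4). Sham replicate 3 stands alone for Cyp11a1 at 11.26, and IUGR replicates 1 and 2 are the high IUGR litters for Prph at 9.69 and 9.21.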

How the data were processed

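Per the labels, each of the 8 arrays measured total RNA of the pooled fetal islets of 1 litter. The authors deposited log2 expression values, and the submitters' processing notes name RMA (background correction, quantile normalization between arrays and probe summary). The sources used here do not give its software, version or probe filters. Of 29214 probe sets, 15310 had 1 annotated gene, 323 several and 13581 none. Symbols were updated through RefSeq gene identifiers of GRCr8, where 15279 matched. The brightest probe set stood for a gene, which left 14506 genes.

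Values were tested as deposited with limma 3.58.1 under R 4.3.3 (lmFit, eBayes, 2 groups), adjusted by Benjamini and Hochberg over all genes at 0.05. Intervals are those of that fit. Relations within groups used exact permutation of litters within groups (576 arrangements). The test was tested on simulated data.

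The 9 genes, the other 15 lists and the tests were chosen with earlier results of these data known. Named genes were the 9, the other ligand, receptor and RET-responsive genes, 9 listed markers (some are not reported here), of 5 lists the members past the threshold and the 2 with the largest difference, and the 5 genes most like Gfra1 and like Ret. The 11 adrenal, catecholamine and neuronal genes Cyp11a1, Cyp11b1, Cyp21a1, Star, Mc2r, Th, Dbh, Slc18a1, Ddc, Prph and Stmn2 were chosen after their values were seen, and Mbp and Cdh19 likewise. The remaining genes of the glial list were named so that it is given whole. Iapp and Kcnj11 were named as the endocrine genes with the highest and lowest percentile. Precision is limited by the 8 arrays. The settings varied were the scaling (quantiles or array medians), leaving out the dimmest 30% of genes, averaging probe sets, a trended robust prior, a replicate block, list means as covariates, and each litter left out. Figures were drawn with matplotlib 3.10.9.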

Additional observations from a re-analysis of the deposited data

Results flagged for a closer look

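A value is listed here where the highest or lowest litter of a group of 4 stood apart from the rest by more than Dixon's 95% critical value, relative to the group's range. That was so in 12 of 146 groups examined, where chance picks out about 1 in 20, and 5 of the 12 were adrenal or catecholamine genes chosen because they stood apart. In sham replicate 3, Cyp11a1 was at 11.26, Cyp21a1 at 10.75, Star at 10.69, Cyp11b1 at 9.65 and Th at 10.16, against at most 6.48, 5.86, 7.06, 6.16 and 7.35 in the other sham litters. The glial gene S100b was at 8.32 in the same litter, against 6.97 to 7.02 in the other sham litters. In sham replicate 4, Ncam1 was at 10.06, the endocrine list mean at 11.48 and the mesenchyme list mean at 12.19. The macrophage list mean was 10.66 in sham replicate 1. In IUGR replicate 4, Krt19 was at 10.96, against 12.20 to 12.33 in the other IUGR litters, and the endothelial list mean was 10.58. None of the 9 GDNF family and neural crest genes had such a litter.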

How the results depend on the processing

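With 36 genes past the threshold as deposited, the count was 0 after quantile normalization (3305 at an unadjusted p under 0.05) and with the replicate block (2715 such genes), 1 after median centring and 59 without the dimmest 30% of genes. Leaving out 1 litter gave 0 to 2738. Gfra1 kept its direction in every fit run, at 0.66 after quantile normalization, 0.65 after median centring and 0.42 with the epithelial covariate. Median centring gave -0.24 for Gfra4, -0.12 for Gdnf, -0.23 for Nrtn and -0.37 for Sox10, and quantile normalization -0.20 for Nrtn and -0.38 for Sox10. The epithelial covariate gave -0.13 for Gfra4, -0.35 for Ret, -0.13 for Gdnf, 0.14 for Nrtn, -0.81 for Ngfr and -0.74 for Sox10. The cause of these moves was not tested. The r of Gfra1 with the glial mean ran from -0.38 (without sham replicate 1) to 0.43, being -0.06 without IUGR replicate 1. With the epithelial mean it ran from 0.40 to 0.90 with 1 litter left out, and was 0.88 after quantile normalization and 0.90 after median centring. It was 0.90 without sham replicate 4 and 0.83 without IUGR replicate 2. With the neuron mean it ran from 0.50 to 0.85 with 1 litter left out. The glial and neuronal r after the scalings are not given here. The replicate numbers did not pair the litters: deviations of same-numbered litters correlated at -0.44, 0.10, -0.12 and -0.13, and 0 of 8 litters were closest to their own number. With the replicate block Gfra1 did not pass the adjusted threshold, nor did any other gene, and its difference was 0.88 ± 0.14 and that of Ret 0.86 ± 0.25 (SE).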

Other observations

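Sham replicate 3 stood apart in genes of the adrenal gland. The steroid synthesis genes Cyp11a1, Cyp21a1, Star and Cyp11b1 were higher there than in the highest of the other 7 litters by 4.55, 4.57, 3.64 and 3.28 on the log2 scale, and Mc2r, the corticotropin receptor gene of the adrenal cortex, by 1.15. Th and Dbh, the tyrosine and dopamine hydroxylase genes of chromaffin cells and sympathetic neurons, were higher by 2.07 and 1.47. Slc18a1, the vesicular monoamine transporter gene of chromaffin cells, and Ddc, the aromatic amino acid decarboxylase gene, were highest in other litters, Slc18a1 at 8.95 in IUGR replicate 1 and Ddc at 11.39 in IUGR replicate 4. Chromaffin cells are themselves of neural crest origin. Without sham replicate 3, the IUGR minus sham difference of Th turned from -0.36 to 0.38 and that of Dbh from -0.44 to 0.12. Gfra1 was then 0.92, Ret 0.96, Sox10 -0.16 and Ngfr -0.34, against 0.88, 0.86, -0.14 and -0.29 with all litters. Ddc differed by 1.63 ± 0.39 (SE) between the groups, without overlap, from 9.23 in sham to 10.86 in IUGR litters.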
